A study of Homo sapiens with 6 samples.

Results

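The genes of the epithelial-mesenchymal transition (EMT) were examined in BxPC-3 pancreatic cancer xenografts given oral deferasirox (DFX). Members were the 10 genes CDH1, CDH2, CDH3, EPCAM, VIM, SNAI1, SNAI2, ZEB1, ZEB2 and TWIST1, taken by matching these symbols to the gene names printed on the array. They were represented by 15 of the 50599 non-control probes, and 12 of the 15 were among the 31803 probes that were tested. Each of the 10 genes had at least 1 tested probe, among 23786 genes with one. The matching used no measured value, but the members were chosen with earlier results of these data known.

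DFX is an iron chelator that is taken by mouth. BxPC-3, 1 human pancreatic adenocarcinoma cell line, was grown under the skin of young adult female BALB/c (nu/nu) mice, a strain without mature T cells. RNA from 3 tumors of mice that received the vehicle (Control) and 3 tumors of mice that received 200 mg/kg DFX by gavage every second day for 21 days was hybridized to one-color Agilent arrays of human 60-base probes, 1 tumor per array. The mouse host still supplies stroma, vessels and innate immune cells, so a tumor's RNA can also hold mouse transcripts, and the probes were designed for human ones. All 6 arrays lay on 1 slide, with the Control tumors in row 1 and the DFX tumors in row 2, so that slide row and treatment cannot be told apart.

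In EMT, epithelial cells give up their cell-cell junctions and polarity and take on the shape, cytoskeleton and motility of mesenchymal cells. The SNAIL, ZEB and TWIST transcription factors repress epithelial genes, above all CDH1, and transforming growth factor-β (TGF-β) is a strong inducer of these factors. Pancreatic ductal tumors often hold cells in intermediate states, with epithelial and mesenchymal genes in the same cells. The study's discussion ties TGF-β1 to EMT in this cancer, and the comparison of Control and DFX tumors asks whether the markers and drivers of EMT differed after the treatment.

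The labelled tissue was checked first. All 10 markers of pancreatic ductal carcinoma epithelium (among them KRT7, KRT19, MUC1 and CEACAM6) were well above background on all 6 arrays. This does not identify the tissue by itself, since 9 of 11 tested fibroblast and 7 of 8 tested leukocyte markers were too. The share of probes well above background was 53.9% to 56.5% on 5 arrays and 50.3% for DFX 2, without saturated spots. Across the tested probes, log2 intensities correlated at 0.983 to 0.990 within groups and 0.980 to 0.988 between groups. Levels below are quantile-normalized log2 intensities, and differences are DFX minus Control on the log2 scale. Levels of different probes are not compared with each other, because probes differ in brightness. The labels tie no pair of tumors to the same mouse, p-values measure the spread between these tumors, and precision is limited by having 3 arrays in each group. With 3 tumors against 3, an exact two-sided permutation test cannot give a p under 0.1, so that the tests rest on limma, which shares the estimate of the spread across all probes.

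EPCAM, a homophilic adhesion molecule of epithelial cells, was higher in the DFX tumors, and 1 of the 2 tested probes of ZEB2, a repressor of CDH1, was lower. CDH1, CDH3 and VIM, with differences of 0.06, 0.12 and 0.06 on the log2 scale, did not pass the test. Of the 12 member probes, 2 passed (16.7%), 1 higher and 1 lower, where passing means an unadjusted limma p under 0.05. This stood beside 8.41% of all tested probes, 3.47% of them higher and 4.95% lower. With p-values adjusted by Benjamini and Hochberg for all 31803 probes, no member reached 0.05, and the lowest adjusted p was 0.514 among the members and 0.0675 among all probes. The p-values given below are these adjusted ones. A rise or fall is therefore named at the unadjusted threshold only. Without Control 3 the number of passing member probes was 5, and without DFX 3 it was 1. The median difference was 0.063 over the member probes, of which 7 were higher and 5 lower, and -0.025 over all tested probes. The groups did not overlap for 5 of the 12 member probes (41.7%), beside 15.5% of all tested probes. These 5 were both probes of CDH2 and the probes of EPCAM and SNAI1, all higher with DFX, and 1 probe of ZEB2, lower with DFX. In bulk tumors, fewer cells of a type and less RNA per cell cannot be told apart, and this holds for every difference below.

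**Figure D1:**
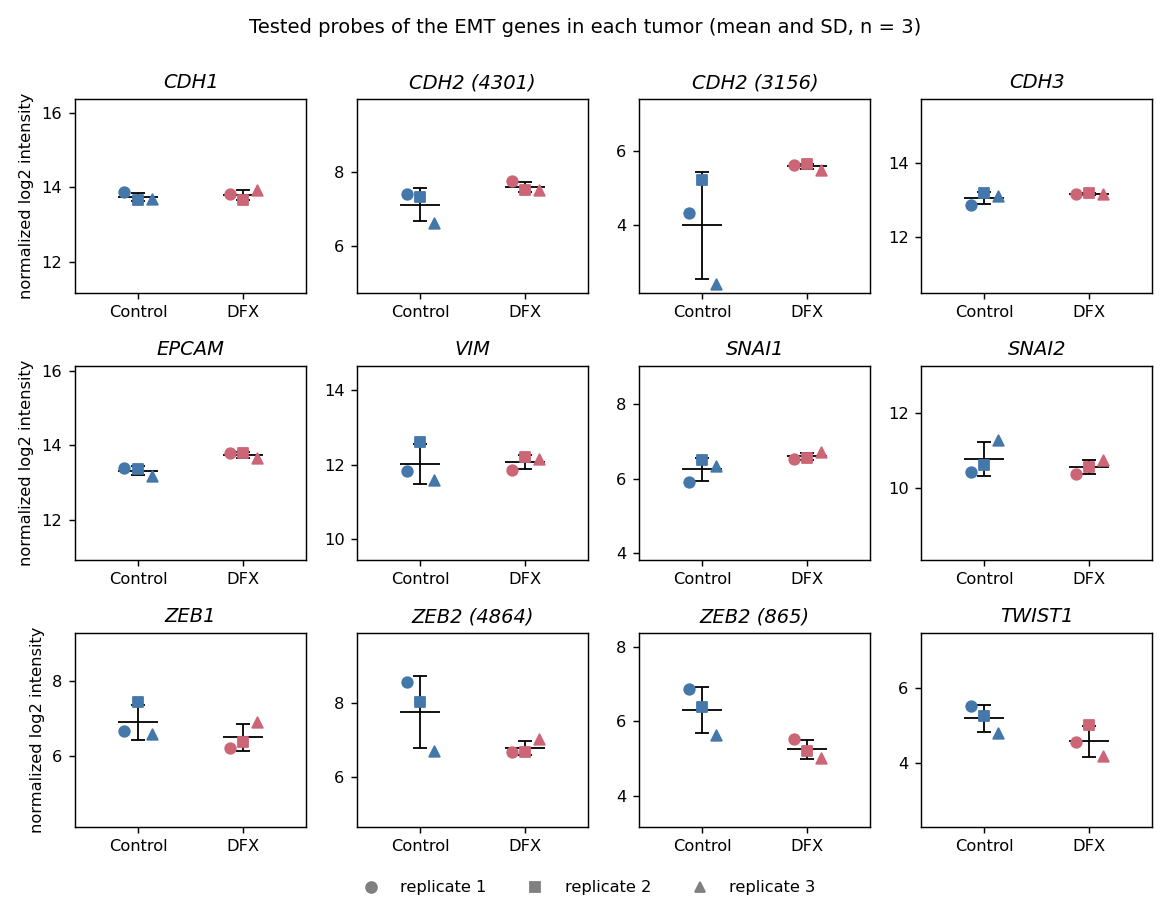
Normalized log2 intensity (vertical axis) of each tested EMT probe in the 3 Control and the 3 DFX tumors, with points for tumors and bars for the group mean ± SD. A number after a symbol is the probe's position in the transcript, and the EPCAM points of the DFX tumors (13.65 to 13.79) all lie above those of the Control tumors (13.17 to 13.39).

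EPCAM was the member with the smallest p. Its product joins neighboring epithelial cells and is used as a marker of carcinoma cells. The single probe lies at chr2:47613894-47613953 on the plus strand of hg19, 1444 bases into the transcript. Its first 30 of 60 bases, 5′ to 3′, are shown because this probe carries the rise.
EPCAM (1444): tcaaaatataagcagcttgaaactggcttt
The levels were 13.39, 13.36 and 13.17 in Control tumors 1, 2 and 3, and 13.78, 13.79 and 13.65 in DFX tumors 1, 2 and 3. All 3 DFX tumors were above all 3 Control tumors. The group means were 13.31 ± 0.12 and 13.74 ± 0.080 (SD, n = 3 each), a rise of 0.43 (SE 0.11, 95% interval 0.15 to 0.71), which is 1.35-fold or 34.7% higher. The rise passed the unadjusted threshold in limma (adjusted p = 0.514), and 512 of the tested probes had a smaller p. By size, 15.6% of the tested probes differed more than EPCAM. The groups were also apart before normalization, at processed intensities of 10285, 9542 and 11774 for Control and 13306, 13480 and 13067 for DFX. Within the 2 slide columns that held both groups, the difference was 0.39 and 0.47. With the slide column as a block the difference was 0.43 and did not pass (adjusted p = 1).

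CDH1 encodes E-cadherin, the adherens junction protein whose loss is a common mark of EMT. The array carried its probe in 10 spots, at chr16:68869214-68869273 on the plus strand of hg19. Averaged over spots, the levels were 13.86, 13.65 and 13.70 in Control tumors, against 13.81, 13.66 and 13.92 in DFX tumors. The highest tumor was DFX 3 and the lowest was Control 2, and the groups overlapped. The means were 13.74 ± 0.11 and 13.80 ± 0.13 (SD, n = 3 each), and the difference was 0.06 (SE 0.12, 95% interval -0.23 to 0.36, adjusted p = 0.897). The SD over the 10 spots of an array was between 0.0552 and 0.0922, and no spot was flagged as an outlier. As a ratio, the interval runs from 0.851-fold to 1.28-fold. The sign depended on the scaling, at -0.035 when arrays were scaled to the same median.

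CDH3 encodes P-cadherin, a classical cadherin of basal epithelia that many pancreatic carcinomas express. Its probe, at chr16:68732812-68732871 on the plus strand of hg19, gave 12.87, 13.17 and 13.09 in Control tumors, against 13.15, 13.19 and 13.15 in DFX tumors. Control 1 was the lowest tumor and Control 2 lay within the range of the DFX tumors. The means were 13.04 ± 0.16 and 13.16 ± 0.026 (SD, n = 3 each), a difference of 0.12 (SE 0.12, 95% interval -0.17 to 0.40, adjusted p = 0.792). It was 0.031 without Control 1 and 0.011 with median scaling.

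CDH2 encodes N-cadherin, which replaces E-cadherin in many mesenchymal-like tumor cells and supports their motility. It had 2 tested probes, and the first 30 of 60 bases of each are given 5′ to 3′ because the probes measured different sizes of the same difference. The brighter one lies at chr18:25530936-25530995 and the dimmer one at chr18:25532081-25532140, both on the minus strand of hg19, at 4301 and 3156 bases of the same transcript.
CDH2 (4301): taccagaatataaatgatacacctctgacc
CDH2 (3156): atgtatggtggaggtgatgactgaacttca
The brighter probe gave 7.41, 7.32 and 6.61 in Control tumors, against 7.73, 7.50 and 7.49 in DFX tumors. All DFX tumors were higher than all Control tumors, and Control 3 was the lowest. The means were 7.11 ± 0.44 and 7.58 ± 0.14 (SD, n = 3 each), and the difference of 0.46 (SE 0.23, 95% interval -0.11 to 1.03) did not pass (adjusted p = 0.643). Without Control 3 it was 0.21. The dimmer probe was well above background in 2 of 3 Control and 3 of 3 DFX tumors, with levels of 2.43 to 5.22 and 5.49 to 5.64. Its difference was 1.59 (SE 0.68, 95% interval -0.066 to 3.24, adjusted p = 0.605), which also did not pass. The size rested on Control 3, the tumor at 2.43, and on how background was handled. It was 0.80 without that tumor (adjusted p = 0.603) and 0.39 after normexp background correction (adjusted p = 0.522), and passed in both.

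VIM encodes vimentin, the intermediate filament of mesenchymal cells. The annotation gives its 60-base probe the interval chr10:17278347-17279256 on the plus strand of hg19, which is longer than the probe. The levels were 11.83, 12.61 and 11.60 in Control tumors, against 11.86, 12.21 and 12.16 in DFX tumors. The highest and the lowest tumor were both Control tumors, and the DFX tumors lay between them. The means were 12.01 ± 0.53 and 12.08 ± 0.18 (SD, n = 3 each), a difference of 0.06 (SE 0.28, 95% interval -0.62 to 0.75, adjusted p = 0.962). Its sign turned under 5 of the 20 alternatives, among them scaling to the median, at -0.050.

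ZEB2 is a zinc finger repressor that binds E-box pairs in the promoters of CDH1 and other epithelial genes. It had 2 tested probes on the minus strand of hg19, at chr2:145146261-145146320 and chr2:145182363-145182422, which lie 4864 and 865 bases into the same transcript. Their first 30 of 60 bases are given 5′ to 3′ because the second passed the threshold and the first did not.
ZEB2 (4864): cttttaatctgtgtttctgcaagtgccatc
ZEB2 (865): aagactatgacactatggggccagaagcca
The probe at 865 gave 6.86, 6.39 and 5.63 in Control tumors, against 5.51, 5.20 and 5.01 in DFX tumors. All 3 DFX tumors were lower than all 3 Control tumors, with a gap of less than the SD of either group between Control 3 and DFX 1. The means were 6.29 ± 0.62 and 5.24 ± 0.25 (SD, n = 3 each), and the level fell by 1.05 (SE 0.33, 95% interval -1.86 to -0.25), which is 51.8% lower (adjusted p = 0.543). A smaller p was found for 1074 of the tested probes and a larger difference for 1.90% of them. Processed intensities before normalization were 117.2, 76.9 and 53.1 in Control tumors, against 44.4, 34.4 and 36.1 in DFX tumors. This probe is dim, and the size of its difference depended on the background correction, at -0.47 with normexp (adjusted p = 0.498) and -0.41 for the raw mean signal (adjusted p = 0.487). It did not pass without Control 2 (adjusted p = 0.701) or without DFX 3 (adjusted p = 0.597).

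The probe of ZEB2 at 4864 gave 8.55, 8.02 and 6.69 in Control tumors, against 6.68, 6.69 and 7.02 in DFX tumors. Control 3 lay at the level of the DFX tumors while Control 1 and Control 2 were above them, so the groups overlapped. The means were 7.75 ± 0.96 and 6.80 ± 0.19 (SD, n = 3 each), and the difference of -0.96 (SE 0.47, 95% interval -2.10 to 0.18) did not pass (adjusted p = 0.635). Without Control 3 the difference was -1.49 and passed (adjusted p = 0.483), and without Control 1 it was -0.56. Both probes ordered the Control tumors alike, with Control 1 the highest and Control 3 the lowest. Within the slide columns the probe at 865 differed by -1.66 and -0.62, and the probe at 4864 by -1.86 and 0.32. A further ZEB2 probe, to a transcript annotated as noncoding, was not well above background on any array (2.21 to 2.36 in Control and 2.46 to 3.22 in DFX tumors) and was not tested.

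ZEB1, the paralog of ZEB2 and the ZEB factor most studied in pancreatic cancer, was measured by a probe at chr10:31818063-31818122 on the plus strand of hg19. The levels were 6.67, 7.44 and 6.60 in Control tumors, against 6.20, 6.38 and 6.90 in DFX tumors. Control 2 was the highest tumor, and DFX 3 lay above the other two Control tumors. The means were 6.90 ± 0.47 and 6.49 ± 0.36 (SD, n = 3 each), a difference of -0.41 (SE 0.29, 95% interval -1.12 to 0.31, adjusted p = 0.725). Within the slide columns it was -0.29 and 0.31, and with the column as a block 0.0098. Without Control 2 it was -0.14, and with array quality weights it was -0.75 and passed (adjusted p = 0.348). A further ZEB1 probe was not well above background on any array, with no level over 2.09, and was not tested.

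SNAI1 encodes SNAIL, a repressor whose protein is rapidly degraded, so that its mRNA is only part of its control. The probe lies at chr20:48605170-48605229 on the plus strand of hg19. The levels were 5.91, 6.51 and 6.35 in Control tumors, against 6.53, 6.57 and 6.71 in DFX tumors. All DFX tumors were above all Control tumors, though Control 2 lay below the lowest DFX tumor by less than the SD of the DFX group. The means were 6.25 ± 0.31 and 6.60 ± 0.096 (SD, n = 3 each), and the difference of 0.35 (SE 0.18, 95% interval -0.083 to 0.78) did not pass (adjusted p = 0.643). Without Control 1, the lowest tumor, it was 0.18.

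SNAI2 encodes SLUG, which is also a factor of basal epithelial cells. Its probe gave 10.44, 10.60 and 11.29 in Control tumors, against 10.38, 10.56 and 10.75 in DFX tumors. Control 3 stood above the other 5 tumors, which lay within 10.38 to 10.75. The means were 10.78 ± 0.45 and 10.56 ± 0.18 (SD, n = 3 each), a difference of -0.21 (SE 0.25, 95% interval -0.82 to 0.39, adjusted p = 0.822), and without Control 3 it was 0.043.

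TWIST1, a basic helix-loop-helix factor of mesoderm and neural crest, was near the lower limit of measurement. The first 30 of 60 bases of its tested probe, at chr7:19156462-19156521 on the minus strand of hg19, are given 5′ to 3′ because the upper end of its interval was close to 0.
TWIST1 (774): aagctgagcaagattcagaccctcaagctg
The levels were 5.52, 5.25 and 4.81 in Control tumors, against 4.56, 5.01 and 4.18 in DFX tumors. It was well above background in 3 of 3 Control and 2 of 3 DFX tumors, and the groups overlapped only through Control 3 and DFX 2. The means were 5.20 ± 0.36 and 4.58 ± 0.42 (SD, n = 3 each), and the difference of -0.61 (SE 0.27, 95% interval -1.28 to 0.055) did not pass (adjusted p = 0.613). After normexp background correction it was -0.20. A further TWIST1 probe was not well above background on any array, at 2.04 to 3.09, and was not tested.

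**Figure D2:**
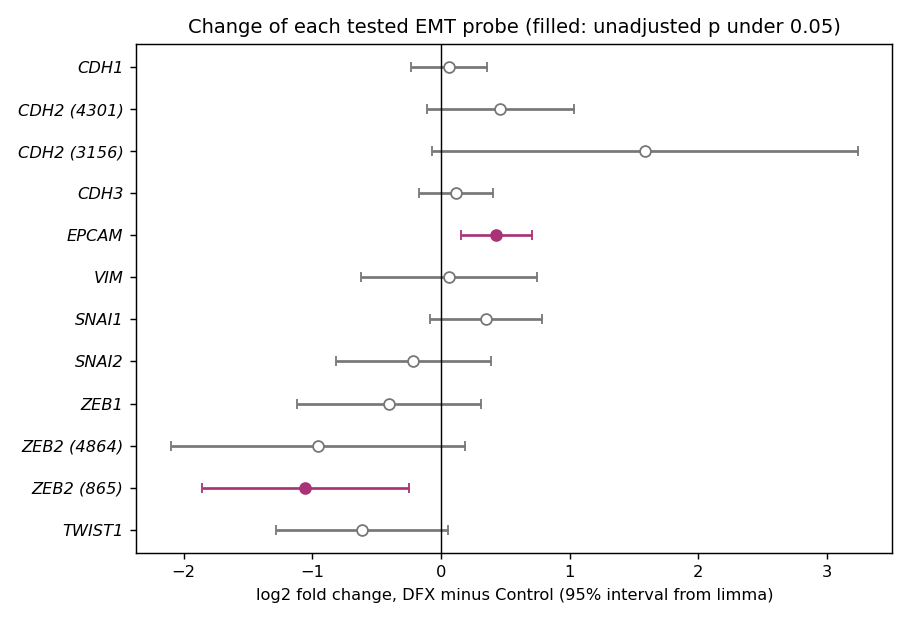
Difference DFX minus Control on the log2 scale (horizontal axis) for each tested EMT probe, with the 95% interval from limma (n = 3 tumors per group). Filled points have an unadjusted p under 0.05, and only EPCAM (0.43) and the ZEB2 probe at 865 (-1.05) have intervals without 0.

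The spread between tumors was mostly wider in the Control group. The SD was larger among the Control tumors for 10 of the 12 member probes (83.3%), beside 53.7% of all tested probes. The median SD of the member probes was 0.44 in the Control and 0.16 in the DFX tumors, and that of all tested probes was 0.20 and 0.18. CDH1 and TWIST1 were the other two, with the larger SD among the DFX tumors. Control 3 was the lowest Control tumor for EPCAM, VIM, ZEB1, TWIST1 and both probes each of CDH2 and ZEB2, and the highest for SNAI2. No test of the difference in spread was made.

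**Figure D3:**
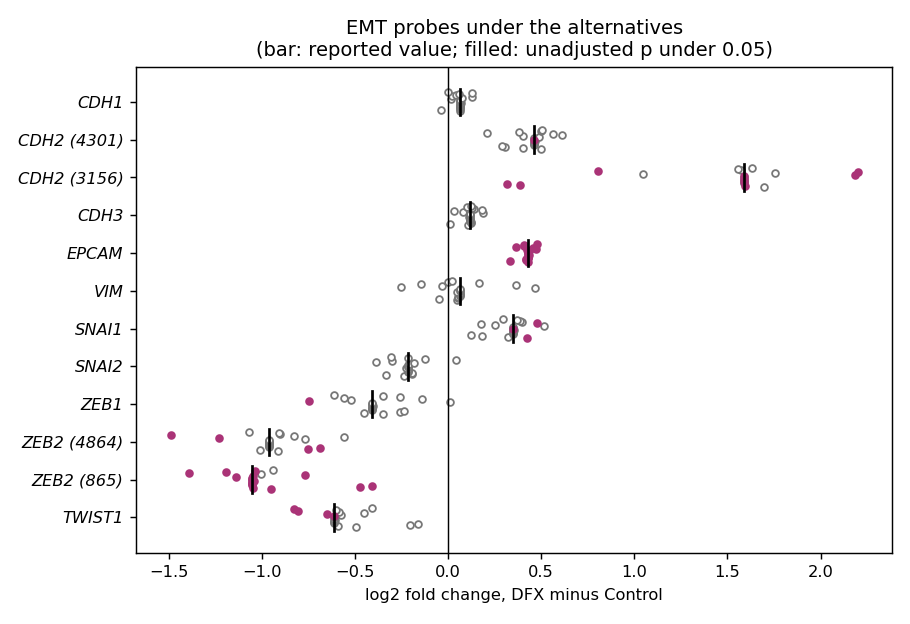
Difference DFX minus Control on the log2 scale (horizontal axis) for each tested EMT probe under the main processing and under up to 20 alternatives, 1 point each. EPCAM stays between 0.33 and 0.48 and the ZEB2 probe at 865 between -1.39 and -0.41, while the points of VIM lie on both sides of 0.

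Other genes of the EMT program were read from lists of known function. A gene of a list was counted when any of its tested probes passed, which held for 10.6% of all tested genes. All adjusted p-values of the genes named here were at or above 0.504. With the slide column as a block, the passing genes were 0 among the other transcription factors, the epithelial regulators and the cadherin-catenin complex, and 1 each among the other cadherins, the mesenchymal effectors and the fibroblast markers. Only 2 slide columns held both groups, so the fit with this block has less power. A lower count there does not show an effect of the column. The median difference over all genes, by the brightest tested probe, was -0.012.

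Of 16 other EMT transcription factors, 12 were tested and 1 passed. This was KLF8, a Krüppel-like repressor of CDH1, which fell by 0.43 (SE 0.16, adjusted p = 0.580). The median of the list was 0.037, and TWIST2, FOXC2, GSC and PRRX1 were not tested. The count was 2 without Control 2, and 0 without Control 1, Control 3 or DFX 2, each left out alone. Of 15 tested regulators of the epithelial state, 3 passed, and the median was 0.068. ESRP1, a splicing factor that keeps epithelial isoforms, fell by 0.28 (SE 0.11, adjusted p = 0.584). GRHL1, a grainyhead factor of epithelial barriers, passed in a probe that was not its brightest and that no DFX tumor raised well above background, and was there at least 1.44-fold lower with DFX (adjusted p = 0.504). Its brightest probe, well above background on all 6 arrays, differed by 0.07 and did not pass. For such a bound the dim arrays were given their lowest reliable signal (the dimmest probe well above background) unless the probe itself read higher. FOXA1 passed only in a probe that was not well above background on any array, so no fold is given, and it is named after its values were seen. GRHL2 and ESRP2 differed by 0.02 and 0.11 in their brightest probes and did not pass. Leaving out DFX 1 or DFX 2 left 1 passing regulator.

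The junction partners of the members mostly did not pass. Of 12 tested genes of the cadherin-catenin complex, 1 passed, with a median of 0.019. AFDN (MLLT4 on the array), which links nectins to actin, was higher by 0.61 (SE 0.13, adjusted p = 0.513) and 0.45 (SE 0.13, adjusted p = 0.522) in 2 probes, while its brightest probe differed by 0.14 and did not pass. CTNNA1, CTNNB1 and CTNND1, the catenins that bind E-cadherin, differed by 0.01, 0.11 and -0.06 in their brightest probes and did not pass. Leaving out Control 1, Control 3 or DFX 3 gave 2 passing genes in this complex. None of the 22 genes of desmosomes and epithelial adhesion passed in limma, and the count ran from 0 to 5 over the alternatives, with 5 under the Kruskal-Wallis H test. Their median was 0.11, with 17 higher and 5 lower. None of 10 genes that cleave or partner EPCAM passed in limma either (0 to 4 over the alternatives, the most under the Kruskal-Wallis H test), with a median of 0.0078. The same held for 16 genes of SNAIL protein turnover and chromatin partners (0 to 2 over the alternatives), with a median of -0.011. With 1 tumor left out, 1 gene passed in the desmosome list without DFX 1, in the EPCAM list without Control 3 or DFX 2, and in the SNAIL list without Control 1, DFX 2 or DFX 3.

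Of 19 other cadherins, 11 were tested and 2 passed, with a median of -0.11. CDH15, the cadherin of muscle, rose by 0.76 (SE 0.19, adjusted p = 0.514), and CDH8 fell by 0.43 (SE 0.15, adjusted p = 0.570). Of these cadherins 1 passed without Control 1, Control 3 or DFX 2. Of 25 tested mesenchymal effectors, 4 passed, with a median of -0.082. LOX, which cross-links collagen, rose by 0.54 (SE 0.21, adjusted p = 0.580) with overlapping groups, and MMP14, a membrane-bound collagenase, rose by 0.31 (SE 0.12, adjusted p = 0.578). CD44 fell by 0.44 in a probe that was not its brightest (SE 0.15, adjusted p = 0.557), and its brightest probe differed by -0.12 and did not pass. SPARC passed in a probe that was well above background in 1 Control tumor alone, so no fold is given, and it is named after its values were seen. FN1 was read by a dim probe that was well above background in 2 Control and 2 DFX tumors. It differed by -0.01 (SE 0.37) and did not pass. The 4 passing effectors became 1 without Control 3 and 2 without DFX 1 or DFX 3.

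**Figure D4:**
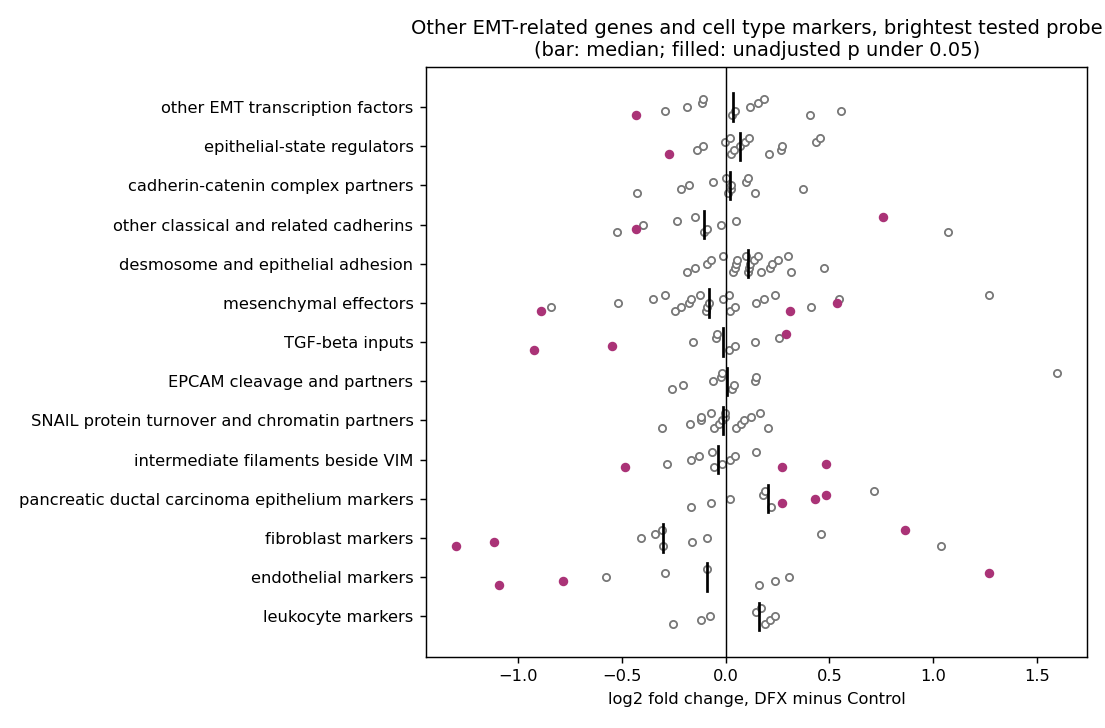
Difference DFX minus Control on the log2 scale (horizontal axis) of each tested gene of the gene lists by its brightest probe, with the median of each list marked. The list of the EMT members itself is not drawn. The list medians lie between -0.30 (fibroblast markers) and 0.20 (ductal carcinoma epithelium markers).

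Intermediate filaments were read beside VIM. Of 12 tested genes, 3 passed, with a median of -0.037. KRT8 and KRT18, the paired keratins of simple epithelia, rose by 0.48 (SE 0.16, adjusted p = 0.553) and 0.27 (SE 0.100, adjusted p = 0.575), with no overlap between groups in these, their brightest probes. The other probes did not pass, at 0.24 and -0.12 for KRT8 and 0.15 for KRT18. INA, a neuronal filament, fell by 0.48 (SE 0.14, adjusted p = 0.526). Within the 10 epithelial markers, EPCAM, KRT8 and KRT18 were the 3 that passed, all higher, with a median of 0.20 over the list. EPCAM is also a member, and KRT8 and KRT18 were read by the same probes as among the filaments. This count is therefore not separate evidence. KRT19 and KRT7 differed by 0.02 and -0.17 and did not pass. With the slide column as a block, 0 of the 10 epithelial markers and 0 intermediate filaments passed, and with median scaling 1 of each list. In the absence of Control 3, DFX 1 or DFX 2, 1 epithelial marker passed, and 1 intermediate filament passed in the absence of Control 2, Control 3, DFX 1 or DFX 2.

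The TGF-β inputs held 3 passing genes of 10 (median -0.013). The study singled out TGFB1 on these tumors, so this list is not independent evidence of a direction. TGFB1, the ligand, gave 10.41, 10.72 and 10.87 in Control tumors, against 10.20, 10.20 and 9.95 in DFX tumors, without overlap. It fell by 0.55 (SE 0.16, adjusted p = 0.514). TGFB2, a second ligand, rose by 0.29 (SE 0.11, adjusted p = 0.571). SMAD4, the shared SMAD of the pathway, passed (adjusted p = 0.555) in its only tested probe, which was well above background in 2 Control and 0 DFX tumors. That probe is dim, at 3.92 to 5.05 in Control and 3.33 to 3.83 in DFX tumors, so no fold is given. SMAD4 is named after its values were seen. When Control 2, DFX 1 or DFX 3 was left out, 1 of the TGF-β inputs passed, and with the slide column as a block 0 of 10 did.

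Several members are also expressed by stromal cells, so markers of other cell types were read beside them. Of 14 fibroblast markers, 11 were tested and 4 passed. DCN fell by 1.30 (SE 0.32, adjusted p = 0.514), PDGFRA by 1.12 (SE 0.30, adjusted p = 0.514) and FBLN1, in a probe that was not its brightest, by 0.58 (SE 0.23, adjusted p = 0.592). The brightest FBLN1 probe differed by -0.30 and did not pass. LUM rose by 0.87 (SE 0.34, adjusted p = 0.584). The summed linear intensity of the list was 28402 to 32327 in the Control and 22539 to 24029 in the DFX tumors, without overlap, and its median difference was -0.30. Bright probes weigh most in such a sum, and the brightest here, those of FBLN1 and COL1A1, overlapped between groups. By brightest probe, 3 of the 11 tested genes were higher and 8 lower. PDGFRB, POSTN and COL6A3 were not tested, and PDGFRB and POSTN were well above background on 0 arrays. COL1A1 differed by -0.09 and did not pass. The 4 passing fibroblast markers became 2 without Control 2, DFX 2 or DFX 3.

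Of 12 endothelial markers, 9 were tested and 3 passed, with a median of -0.091. PECAM1 rose by 1.27 in its brightest probe (SE 0.19, adjusted p = 0.504), ENG, well above background in 1 of 3 DFX tumors, fell by 1.09 (SE 0.29, adjusted p = 0.514) and TIE1 fell by 0.78 (SE 0.28, adjusted p = 0.570). The summed intensity was 1178 to 1598 in the Control and 1177 to 1265 in the DFX tumors. Of 12 leukocyte markers, 8 were tested and none passed in limma (0 to 1 over the alternatives, 1 without DFX 1 or DFX 3), with a median of 0.16 and sums of 5211 to 5949 and 5319 to 6072. CSF1R, CD163 and MPO were well above background on 0 arrays. The fibroblast sum was lower in the DFX tumors, as the ZEB2 probe at 865 was. The ZEB2 probe at 4864 overlapped between groups, and so did the endothelial and leukocyte sums. The host's stromal, vessel and immune cells are mouse cells, while the probes were designed for human transcripts. The part of these cell types in the ZEB2 value was not tested.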

How the data were processed

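RNA of 6 BxPC-3 xenografts was hybridized to 1 array each, and the tumors were grouped as Control (3) and DFX (3) by their labels. The authors deposited 1 scanner file per array, with spot intensities on a linear scale (raw mean, background, and a processed signal with the background subtracted). Beside them the authors deposited the scanner's flags and each spot's p-value for a difference from background. They also deposited a table of normalized intensities, used here as an alternative. The file headers give Agilent Feature Extraction 10.7.1.1 and the submitters' processing notes 9.5.1.1.

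The study's methods apply the log2 transformation and quantile normalization to raw signal intensities. Here the background-subtracted processed signal of 58717 non-control spots was used, with the raw mean signal as an alternative. A probe was kept if the background p-value was under 0.05 on each of the 6 arrays. For in vivo experiments in general the methods name the Kruskal-Wallis H test, which was run as an alternative, and their array section names no test. The 1398 outlier spot values were left out, and spots were averaged within each of 50599 probes. Of 31807 detected probes, 4 had no value left on some array, and 31803 were fitted together in limma 3.58.1 (lmFit, then eBayes; R 4.3.3), and p-values were adjusted by the Benjamini-Hochberg method across all of them. The prior degrees of freedom were 2.04. Intervals are 95% intervals from that fit. The procedure was tested on simulated data.

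All 10 members are named with every probe. Each list gives up to 5 genes with an unadjusted p under 0.05 in a probe that every array of 1 group or both read well above background, and TGFB1 is added. List genes named as not passing, and those said to be named after their values were seen, fall outside this rule. The members and lists were chosen with earlier results of these data known. Genes carry the symbols printed in the scanner files, checked against the RefSeq table of GRCh38.p14. Probe positions (hg19) also come from the scanner files and were not placed in exons or UTRs here. Samples with the same replicate number deviated from their group means with correlations of 0.027, 0.027 and 0.016, so the numbers were not taken to pair the tumors. The 20 alternatives covered normalization, background correction, signal column, dim-probe filter, outlier spots, the deposited table, the test, blocks, array weights and each tumor left out.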

Additional observations from a re-analysis of the deposited data

How the results depend on the processing

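EPCAM kept its direction under all 20 alternatives, between 0.33 and 0.48, and its p was under 0.05 in 19 of them. The ZEB2 probe at 865 stayed lower in all 20 and passed in 17. Alternatives that changed only the test, the dim-probe filter or the replicate block could alter a p but not a difference. The count of member probes at an unadjusted p under 0.05, which was 2, was 1 in the linear model without moderation, 4 for the raw mean signal as for normexp, 5 when arrays were weighted by quality and 5 by the Kruskal-Wallis test. Leaving out 1 tumor at a time gave 1 (without DFX 3) to 5 (without Control 3). The count over all tested probes, 2675, was 4927 by the Kruskal-Wallis test, whose chi-square approximation passes every probe without overlap, 4213 with array weights and 1418 with the slide column as a block, and 1889 to 2717 with 1 tumor left out. The member probes without overlap, 5 in all, were 3 for the raw mean signal and 5 to 7 with 1 tumor left out.

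With the replicate number as a block, 4 member probes passed (1 each of CDH2, EPCAM, TWIST1 and ZEB2) and 2419 of all probes. The numbers do not pair the tumors.

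Of 238 member values under alternatives, 8 turned sign. Not all of them could, since a new test, dim-probe filter or replicate block leaves a difference as it was. CDH1 was at -0.035 and VIM at -0.050 with median scaling, VIM at -0.25 with array weights, and ZEB1 at 0.0098 with the slide column as a block. With 1 tumor left out, VIM ran from -0.15 to 0.36 and SNAI2 from -0.38 to 0.043. Median scaling moved the median of all probes from -0.025 to -0.10. Of the passing probes, 58.8% were lower, against 71.8% when medians were equalized and 42.6% when 75th percentiles were. Of 280 counts of list genes under alternatives, 83 moved, either by more than 1.5 times or to or from 0. Except where a sentence names the construction, the cause was not tested. For the dim probes (TWIST1, the ZEB2 probe at 865, the CDH2 probe at 3156) the size of the difference is uncertain. With normexp background correction it was smaller than in the main processing, at -0.20, -0.47 and 0.39.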
